A study of Homo sapiens with 6 samples.

Results

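The genes described are the EGF family ligands EGF, AREG, EREG, HBEGF and TGFA, the receptors EGFR, ERBB2 and ERBB3, and the feedback inhibitor ERRFI1. They were taken by name, 9 genes of the 19198 in the deposited table, to compare MCF10A cells grown without growth factors with MCF10A cells grown with them. MCF10A is an established, non-tumorigenic line of human mammary epithelial cells. Control cells (3 samples) received 10 µg/ml human insulin, 20 ng/ml recombinant hEGF, 100 ng/ml cholera toxin and 0.5 µg/ml hydrocortisone, and depleted cells (3 samples) received none of these. Both media held 5% horse serum. Since the 4 agents were removed together, the effect of removing EGF cannot be told apart from that of removing the other agents. The labels number 3 replicates in each condition, although the design text of the series speaks of 2, and do not say whether they were separate cultures, so the p-values measure the spread between these samples, which may be technical. The day of RNA collection is not given for these samples.

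EGF family ligands are made as membrane-anchored precursors that proteases cut to release the active factor. EGF, AREG (amphiregulin), EREG (epiregulin), HBEGF (heparin-binding EGF-like growth factor) and TGFA (transforming growth factor alpha) all bind EGFR, and HBEGF and EREG also bind ERBB4. EGFR, ERBB2 and ERBB3 work as pairs: ERBB2 has no known ligand of its own, and ERBB3, whose kinase is impaired, binds neuregulins and signals with ERBB2. ERRFI1 (MIG6) is induced by receptor signalling and inhibits the EGFR kinase. Basal-like mammary cells such as MCF10A depend on added EGF to grow.

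AREG and EREG lie beside EPGN (epigen, a further EGFR ligand) on the long arm of chromosome 4. The promoters of these neighbours are shown because all of them had lower transcript levels without growth factors. Each run covers 250 bases before and 50 bases after the RefSeq start site (GRCh38.p14, plus strand), at chr4:74308220-74308519 for EPGN, chr4:74364895-74365194 for EREG and chr4:74444886-74445185 for AREG. Capitals mark matches to TATAAA, the CRE (cyclic AMP response element) TGACGTCA and the E-box CACCTG on either strand.
EPGN: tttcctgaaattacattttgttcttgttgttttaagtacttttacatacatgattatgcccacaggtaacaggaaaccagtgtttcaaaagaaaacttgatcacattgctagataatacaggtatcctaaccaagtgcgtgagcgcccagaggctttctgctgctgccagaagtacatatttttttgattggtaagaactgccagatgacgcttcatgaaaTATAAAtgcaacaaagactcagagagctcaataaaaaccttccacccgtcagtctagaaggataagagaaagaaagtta
EREG: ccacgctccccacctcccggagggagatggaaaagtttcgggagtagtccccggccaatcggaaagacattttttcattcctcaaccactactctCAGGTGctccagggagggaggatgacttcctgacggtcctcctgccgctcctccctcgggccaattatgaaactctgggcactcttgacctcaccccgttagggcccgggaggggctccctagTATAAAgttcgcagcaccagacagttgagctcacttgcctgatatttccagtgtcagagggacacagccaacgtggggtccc
AREG: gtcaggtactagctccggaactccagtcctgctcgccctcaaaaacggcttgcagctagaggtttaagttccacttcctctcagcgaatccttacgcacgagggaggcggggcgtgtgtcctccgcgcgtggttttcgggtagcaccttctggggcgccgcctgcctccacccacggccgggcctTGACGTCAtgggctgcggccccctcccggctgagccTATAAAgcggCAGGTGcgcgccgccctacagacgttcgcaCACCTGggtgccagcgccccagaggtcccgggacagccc

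The sequence TATAAA starts 29 bases before the start site in EPGN, 32 bases in EREG and 29 bases in AREG. At any position and on either strand, it occurs in 11.5% of the 35116 promoters of this length. The share with a match at such a distance was not counted. AREG also holds TGACGTCA, 65 bases before the start site, a sequence found in 1.85% of all promoters. The E-box CACCTG, which SNAI and ZEB repressors can bind, was found in promoters of AREG and EREG but also of HBEGF, TGFA and BTC, which were not called, and in 20.6% of all promoters. RefSeq promoters were matched for 8 of the 9 members, ERBB3 being without an entry in the table used. For contrast, the main promoter of EGFR at chr7:55018767-55019066 (plus strand) is printed next. It has a GC content of 75.3%, against a median of 58.7% over all promoters, and no match to these motifs on either strand, to the AP-1 site TGACTCA, to the E-box CACGTG or to the glucocorticoid response element. The second EGFR promoter in the table holds both TATAAA and TGACTCA. A match is only a match of letters, and its absence says nothing about binding.
EGFR: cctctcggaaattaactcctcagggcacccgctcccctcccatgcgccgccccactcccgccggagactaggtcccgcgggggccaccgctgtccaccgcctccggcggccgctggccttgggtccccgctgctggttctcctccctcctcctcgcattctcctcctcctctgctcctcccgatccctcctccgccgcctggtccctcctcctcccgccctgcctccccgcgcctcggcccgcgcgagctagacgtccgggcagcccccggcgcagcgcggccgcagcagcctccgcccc

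The deposited values are normalized read counts, scaled by the authors with 1 size factor per sample and not corrected for gene length. Between 7472418 and 28672630 reads on genes were recovered per sample, and 3 reads, taken as the floor, correspond to between 1.76 and 6.71 normalized counts (counting error only). Differences were tested with limma on log2(normalized count + 1), the scale of every log2 fold change given. Calls needed a change of at least 2-fold and a p under 0.05 after Benjamini-Hochberg adjustment over all 16988 genes tested. Epithelial markers were present in every control sample. KRT8, a luminal keratin, had between 2442 and 8635 normalized counts and KRT5, a basal keratin, between 12739 and 38503. The samples thus held both luminal and basal markers, although the labels name the cells luminal. In the depleted samples the 11 mesenchymal and fibroblast markers together reached between 129057 and 194647 normalized counts against 3953 to 11453 in the controls, and 9 of the 10 tested were called higher. Of the 8 basal markers, limma and edgeR called TP63, which was lower (log2 fold change -4.18, limma adjusted p = 0.027), while DESeq2 also called the keratin KRT17 higher (5882 to 16142 in the controls, 19236 to 123480 after depletion, limma adjusted p = 0.0877). Of the 2 leukocyte markers in the table, PTPRC did not pass 13.8 normalized counts in any sample, whereas CD14 lay between 271 and 882 in the controls and between 72.8 and 646 after depletion. Of the 4 endothelial markers, VWF did not pass 13.4, whereas PECAM1 lay between 91.5 and 999 in the controls and between 110.2 and 1582 after depletion, and KDR between 32.2 and 778 and between 0 and 24.9. The endothelial cadherin CDH5 was called higher, from 4.1 to 8.8 in the controls to 25.6 to 118.7. The luminal markers summed to between 14865 and 26839 normalized counts in the controls and between 19238 and 33776 after depletion, with KRT19 called lower of 9 by limma and edgeR and ESR1 and ELF3 as well by DESeq2. Of these 9, 7 had a log2 fold change below 0 (median -0.98) and the other two, KRT8 and KRT18, hold most of the summed level after depletion. The basal markers summed to between 82101 and 107646 in the controls and between 53480 and 191128 after depletion. The part of these marker changes in the results on the EGF family was not tested, and in bulk RNA fewer cells of a type and less RNA per cell cannot be told apart.

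AREG, EREG and EGFR were called, all of them lower without growth factors, and the other 6 members were not called (EGF, HBEGF, TGFA, ERBB2, ERBB3 and ERRFI1). The 3 of 9 members called compare with 6.33% of all genes tested, and 1.97% called lower. The 0 members called higher compare with 4.36%. In 6 of the 9 members the conditions did not overlap, 5 lower and 1 higher without growth factors, where 25.6% of all genes tested had conditions that did not overlap. The median log2 fold change of the members was -0.52, against -0.03 over all genes tested. The members were chosen with earlier results of these data known, so these comparisons only describe them. With 3 samples in each condition, the smallest p that exact permutation (two-sided) allows for any member by itself is 0.1. At an unadjusted limma p under 0.05, EGF was the 1 member higher, edgeR called 0 members higher and DESeq2 called EGF.

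**Figure D1:**
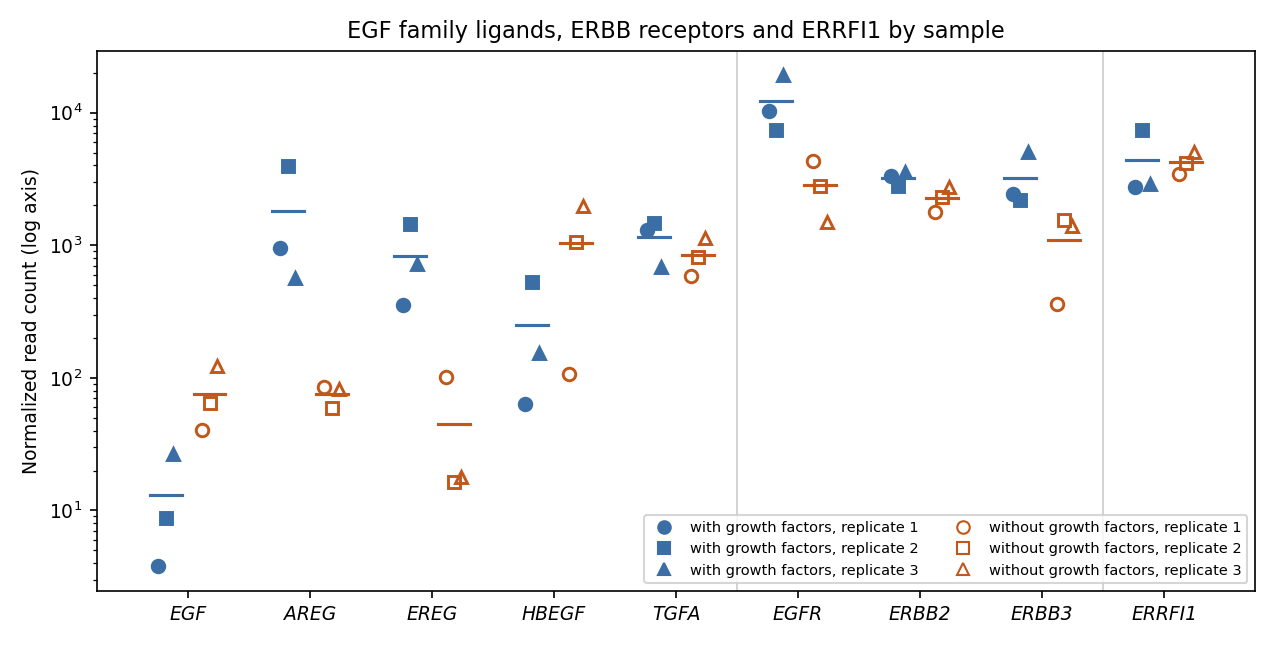
Normalized read count (log axis) of each member in each sample, with filled symbols for cells with growth factors and open symbols for cells without; symbol shape gives the replicate number and each bar the mean of 3 samples. AREG, EREG, EGFR, ERBB2 and ERBB3 lie lower in every depleted sample, EGF lies higher in every depleted sample, and HBEGF, TGFA and ERRFI1 overlap between conditions.

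Among the member ligands, AREG had the lowest adjusted p. AREG (ENSG00000109321), on chromosome 4 of hg38 from 74445136 to 74455005, reached 950, 3951 and 566 normalized counts in the controls (replicates 1, 2 and 3 in that order, as in all such lists) against 85.1, 59.0 and 82.7 in the depleted samples. Every depleted sample was thus below every control sample, and the depleted samples lay close together. The mean went from 1822 ± 1854 to 75.6 ± 14.4 (SD, n = 3 each). Its log2 fold change was -4.09 (SE 0.65, limma adjusted p = 0.0084, 95% interval -5.57 to -2.60). Leaving out any 1 of the 6 samples did not end the call. Without control replicate 2, the sample in which it was highest, its log2 fold change was -3.28 (limma adjusted p = 0.00921).

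EREG (ENSG00000124882), the neighbour of AREG from 74365145 to 74388749, followed the same direction. It had 353, 1435 and 721 normalized counts in the controls against 101, 16.4 and 17.9 after depletion, again with no overlap. The last of these values rests on 8 reads and that of depleted replicate 2 on 25 reads. The mean went from 837 ± 550 to 45.0 ± 48.2 (SD, n = 3 each), a log2 fold change of -4.48 (SE 0.77, limma adjusted p = 0.012). Depleted replicate 1 kept the most EREG, and without it the log2 fold change was -5.30 (limma adjusted p = 0.00396). Without depleted replicate 2 the call was lost (log2 fold change -4.03, limma adjusted p = 0.0518).

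EGF, the factor that was removed as protein from the medium, had few reads of its own transcript. EGF (ENSG00000138798), on chromosome 4 from 109912883 to 110013766, gave 3.8, 8.8 and 26.6 normalized counts with growth factors, from 3, 15 and 27 reads. Without growth factors it had 40.3, 64.9 and 123.0, from 44, 99 and 55 reads. The depleted samples were all higher than the controls, of which 1 was at the floor of 3 reads. Its log2 fold change of 2.68 (SE 0.76) did not pass (limma adjusted p = 0.0802). Without control replicate 3, the control with the most EGF, it passed with a log2 fold change of 3.35 (by limma, adjusted p = 0.0174). The count model of DESeq2 also called it (adjusted p = 0.0145), while edgeR did not.

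HBEGF (ENSG00000113070), on chromosome 5 from 140332843 to 140346603, separated the depleted samples from each other. It had 63.9, 532 and 154 normalized counts in the controls against 107, 1056 and 1968 after depletion. Depleted replicate 1 was within the control range, whereas depleted replicates 2 and 3 were above every control sample. The log2 fold change of 1.799 (95% interval -0.71 to 4.31) missed the threshold (limma adjusted p = 0.425), and so did that of 3.04 without depleted replicate 1 (limma adjusted p = 0.0807).

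TGFA (ENSG00000163235), on chromosome 2 from 70447284 to 70554193, gave 1313, 1476 and 686 normalized counts in the controls against 589, 814 and 1134 after depletion. The conditions overlapped, and the log2 fold change was -0.43 (95% interval -1.31 to 0.45, limma adjusted p = 0.61). A decrease of 2-fold in TGFA lies within this interval.

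The receptor EGFR (ENSG00000146648) had the highest mean count of the members in the control samples. It lies on chromosome 7 from 55019017 to 55211628 and had 10275, 7392 and 19141 normalized counts with growth factors against 4295, 2814 and 1498 without. All depleted samples were below all control samples, and the mean fell from 12269 ± 6123 to 2869 ± 1400 (SD, n = 3 each). The log2 fold change was -2.11 (SE 0.49, 95% interval -3.23 to -0.99, limma adjusted p = 0.041). This adjusted p lies close to the threshold: it was 0.0505 with the replicate number as a block and 0.0593 by edgeR, and the call was lost without control replicate 1 (0.108), depleted replicate 2 (0.13) or depleted replicate 3 (0.163), with log2 fold changes between -2.46 and -1.70 over the 6 samples left out in turn.

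ERBB2 (ENSG00000141736), on chromosome 17 from 39687914 to 39730426, had the narrowest range of the receptors. Its normalized counts were 3329, 2817 and 3570 with growth factors and 1797, 2299 and 2773 without. The highest depleted sample was just below the lowest control sample. The log2 fold change was -0.52 (95% interval -1.16 to 0.13) and did not pass (limma adjusted p = 0.369). ERBB2 overlaps PGAP3 and MIEN1, both on the other strand and each under 500 normalized counts in every sample, and whether reads were counted by strand is not given in the sources used here.

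ERBB3 (ENSG00000065361), on chromosome 12 from 56076799 to 56103505, gave 2424, 2205 and 5054 normalized counts in the controls against 360, 1555 and 1389 after depletion. The conditions did not overlap, and depleted replicate 1 was far below the other depleted samples. The log2 fold change of -1.71 (SE 0.58, 95% interval -3.04 to -0.37) was not called (limma adjusted p = 0.139). Without depleted replicate 1 it was -1.03 (limma adjusted p = 0.25). ERBB3 overlaps the protein-coding gene ENSG00000257411 on the same strand, which has no deposited values. The part of that gene in the ERBB3 counts was not tested.

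ERRFI1 (ENSG00000116285), on chromosome 1 from 8004404 to 8026309, encodes the inhibitor that EGFR signalling induces. It had 2758, 7409 and 2922 normalized counts in the controls against 3431, 4203 and 5085 after depletion. The depleted samples lay inside the control range, and the log2 fold change was 0.10 (95% interval -0.87 to 1.06, limma adjusted p = 0.934). Its sign turned without control replicate 1 (-0.15), without control replicate 3 (-0.11), without depleted replicate 3 (-0.04) and by DESeq2 (-0.02).

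**Figure D2:**
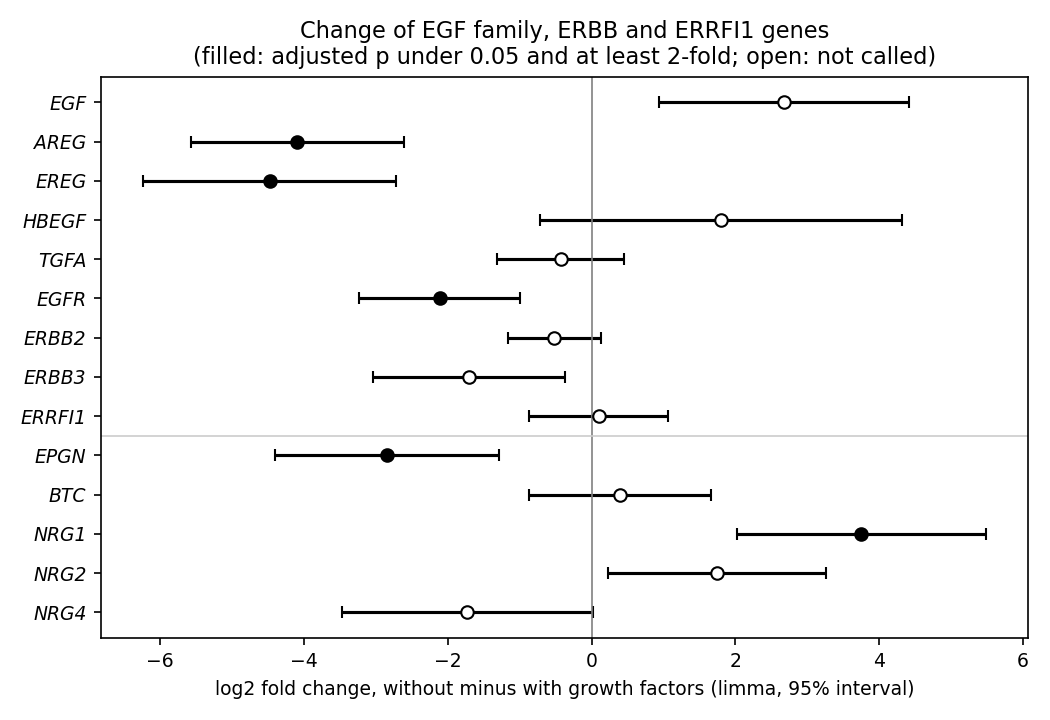
Log2 fold change (without minus with growth factors) with its 95% interval from limma for the 9 members and, below the line, for the other EGF family ligands tested. Filled points are called. AREG, EREG, EGFR and EPGN are called lower and NRG1 higher. The intervals of HBEGF, TGFA, ERBB2, ERRFI1, BTC and NRG4 cross 0. Those of EGF, ERBB3 and NRG2 do not, although these genes are not called.

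Samples of the same condition also differed from each other in this family. Of the 3 controls, replicate 2 was highest for 5 of the 9 members, AREG, EREG, HBEGF, TGFA and ERRFI1, and replicate 3 for the other 4, EGF and all the receptors. Of the depleted samples, replicate 1 was lowest for 6 members and highest for 3, AREG, EREG and EGFR. The same library differed from depleted replicates 2 and 3 in epithelial markers, in both directions: it had 562 normalized counts of KRT5 against 10908 and 14997 and 153 of EPCAM against 2281 and 2486, but 980 of KRT14 against 193 and 306 and 1032 of MUC1 against 323 and 87.2. Mesenchymal and fibroblast markers differed in both directions as well. VIM was at 44834 against 16542 and 19283 and DCN at 4495 against 449 and 481. FN1 was lower, at 48562 against 159901 and 117025, and so was CDH2, at 2284 against 3594 and 3007. The part of this library in the spread of the members was not tested beyond the values without it.

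Levels were compared between genes per kilobase of annotated exon. With growth factors, EGFR was the most abundant receptor transcript in every sample, at 770 ± 384 normalized counts per kilobase, followed by ERBB2 at 314 ± 37.2 and ERBB3 at 276 ± 135 (SD, n = 3). ERBB2 and ERBB3 did not differ beyond their spread, taken as the sum of both SDs. EGFR and ERBB2 did with the exon length, but not with the length of the longest transcript. Without growth factors ERBB2 was at 222 ± 47.3, EGFR at 180 ± 87.8 and ERBB3 at 94.0 ± 55.3 normalized counts per kilobase (SD, n = 3), and neighbours in this order did not differ beyond their spread. By sample, the ratio of EGFR to ERBB2 per kilobase was 1.999, 1.70 and 3.47 with growth factors and 1.55, 0.792 and 0.350 without, so the order of the pair was turned in depleted replicates 2 and 3 but not in replicate 1. The share of EGFR in the summed receptor level went from 54.9%, 50.1% and 60.6% to 56.8%, 33.1% and 19.5%. ERBB4, which was below the minimum mean for testing, stayed at or below 1.66 normalized counts per kilobase in every sample and had between 2 and 26 reads.

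Among the EGFR ligands, AREG took the largest or next largest share of the summed level in every control sample and HBEGF the largest in depleted replicates 2 and 3. With growth factors the order of the mean levels per kilobase was AREG (1110 ± 1129), EPGN (438 ± 290), TGFA (236 ± 84.9), EREG (146 ± 96.3), HBEGF (83.5 ± 83.1), BTC (35.3 ± 26.2) and EGF (1.71 ± 1.57) (SD, n = 3). Neighbours from AREG to BTC in this order did not differ beyond their spread, and BTC and EGF did. Without growth factors the order was HBEGF (349 ± 311), TGFA (172 ± 55.7), EPGN (49.3 ± 21.1), AREG (46.1 ± 8.79), BTC (40.2 ± 10.1), EGF (9.97 ± 5.57) and EREG (7.87 ± 8.44), with differences beyond the spread between TGFA and EPGN and between BTC and EGF. AREG made up 37.2%, 63.2% and 43.8% of the summed level of these 7 ligands in the controls against 15.5%, 5.56% and 4.83% after depletion. HBEGF made up 1.37%, 4.67% and 6.53% in the controls and 10.7%, 54.7% and 63.1% in the depleted samples. These shares also depend on the other ligands, of which AREG, EREG and EPGN were called lower. The HBEGF count of depleted replicate 1 lay within the control range, and HBEGF was not called (limma adjusted p = 0.425). The ratio of HBEGF to AREG per kilobase was 0.0369, 0.0739 and 0.149 with growth factors and 0.691, 9.83 and 13.1 without, which was higher in every depleted sample.

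**Figure D3:**
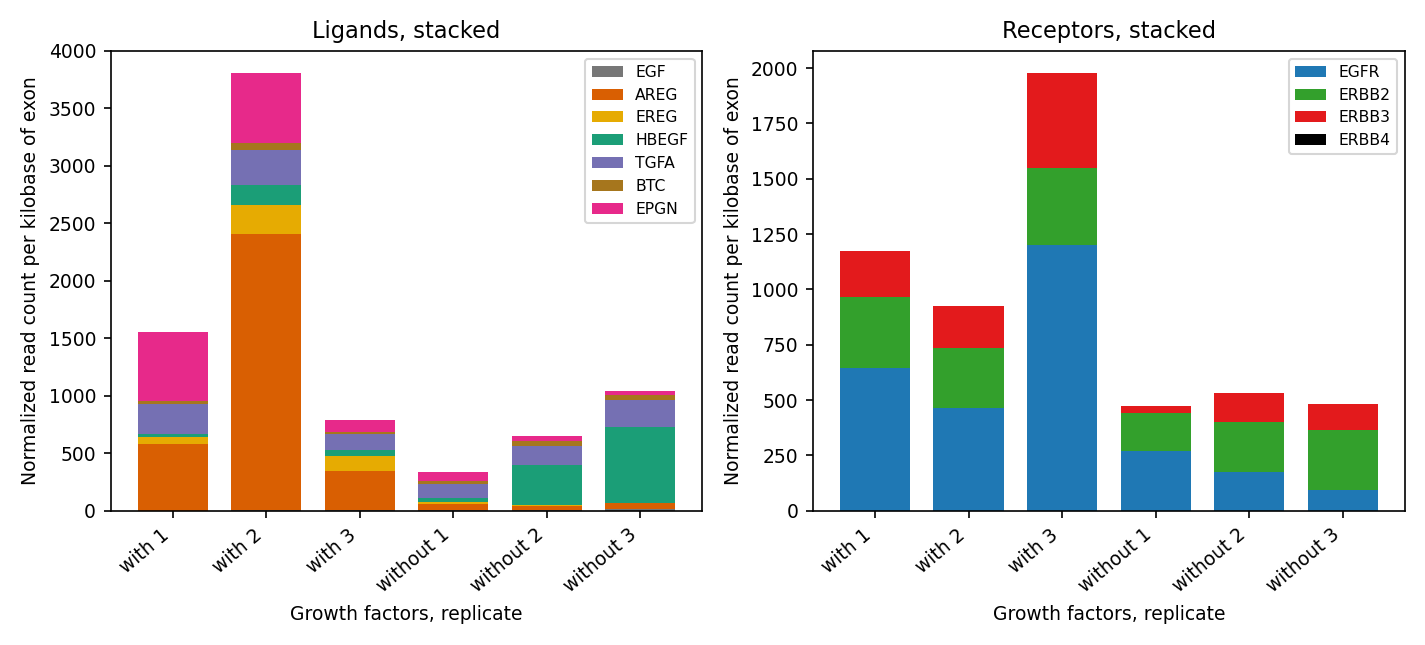
Stacked normalized read count per kilobase of exon of 7 EGFR ligands (left) and 4 ERBB receptors (right) in each of the 6 samples, with axes from 0. AREG and EPGN fill most of the control bars and HBEGF most of the bars of depleted replicates 2 and 3, while the summed receptor level is between 475 and 533 in the depleted samples and between 925 and 1980 in the controls.

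Of the other ligands of the family, 5 were tested, and EPGN was called lower and NRG1 higher. EPGN had 1991, 2005 and 341 normalized counts in the controls against 241, 140 and 107 after depletion. The lowest control sample was above the highest depleted sample, and the log2 fold change was -2.84 (SE 0.68, limma adjusted p = 0.0461). It was called only without control replicate 3 when samples were left out in turn, with a log2 fold change of -3.69 (by limma, adjusted p = 0.00278) there and limma adjusted p values between 0.0574 and 0.162 in the other fits.

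NRG1, a neuregulin that binds ERBB3 and ERBB4, was called in the opposite direction. It had 10.0, 22.8 and 84.6 normalized counts in the controls against 708, 301 and 255 after depletion, a log2 fold change of 3.75 (SE 0.76, limma adjusted p = 0.0237). All depleted samples were above all control samples. It too kept its call only without control replicate 3 (log2 fold change 4.55, limma adjusted p = 0.0051), and the other limma adjusted p values were between 0.062 and 0.0796, with a log2 fold change of 3.07 without control replicate 1. The remaining ligands were not called, with log2 fold changes of 0.40 for BTC (betacellulin; limma adjusted p = 0.758), 1.75 for NRG2 (0.183) and -1.72 for NRG4 (0.255). NRG2 rests on between 2 and 35 reads per sample and passed only without control replicate 3 (limma adjusted p = 0.0456). NRG3 was not analysed here.

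The genes around AREG were looked at after its values were seen, over 1000000 bases on either side of the stretch from EPGN to BTC. Of the 18 genes tested there, 4 were called lower and 0 higher, beside 1.97% of all genes called lower. EPGN, EREG and AREG are among the 4 because the window was set around them, so their calls add nothing, and the remaining call is MTHFD2L, the tested gene next to EPGN. MTHFD2L, an enzyme of mitochondrial folate metabolism, had 400, 682 and 826 normalized counts in the controls against 190, 189 and 139 after depletion (log2 fold change -1.83, limma adjusted p = 0.0224). On the near side CXCL2 had a log2 fold change of -2.68 (by limma, adjusted p = 0.0806), which DESeq2 called lower, and BTC on the far side had no call by limma, edgeR or DESeq2. At an unadjusted limma p under 0.05, 2 genes were higher (PARM1 and ODAPH), of which edgeR called 0 and DESeq2 called ODAPH. The median log2 fold change of the 18 genes was 0.17.

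**Figure D4:**
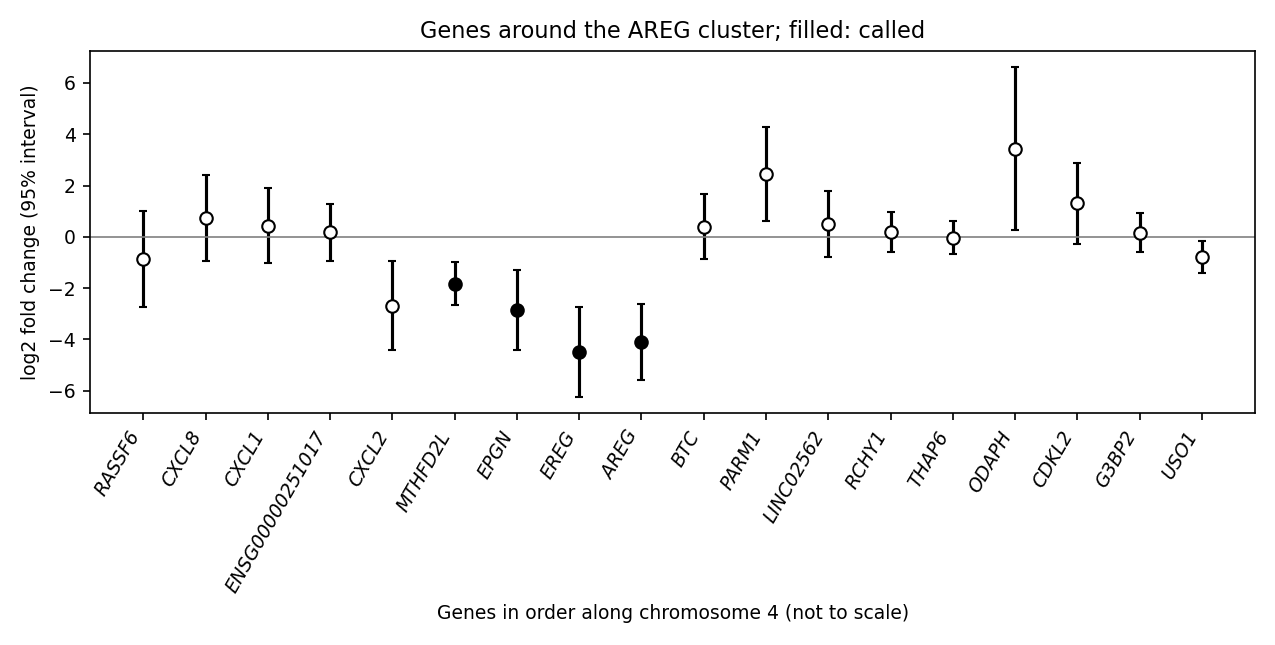
Log2 fold change with 95% interval (limma) of the 18 tested genes within 1000000 bases of the EPGN to BTC stretch, in order along chromosome 4 and not to scale. The filled, called points are the adjacent genes MTHFD2L, EPGN, EREG and AREG, between -4.48 and -1.83, while BTC lies at 0.40.

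Other steps of the pathway were followed in lists of named genes, 65 genes in all (1 not analysed here), of which 63 were tested and 6 were called, 4 higher and 2 lower, beside 6.33% of all genes called (4.36% higher and 1.97% lower). Of the 6 genes of ligand shedding, 0 were called. At an unadjusted limma p under 0.05 there were 2, edgeR called the rhomboid protease RHBDL2 lower, and DESeq2 called RHBDL2 lower and TIMP3, an inhibitor of ADAM17, higher. ADAM17, which sheds AREG, EREG, HBEGF and TGFA, had a log2 fold change of -0.40 (by limma, adjusted p = 0.578), and ADAM10, which sheds EGF and BTC, of -0.30 (limma adjusted p = 0.688). The 12 negative regulators of the receptors, among them the ubiquitin ligase CBL and LRIG1, also gave 0 calls, with a median log2 fold change of 0.01. At an unadjusted limma p under 0.05 there were 3 (2 higher and 1 lower), while edgeR called 0 and DESeq2 called LRIG1. LRIG1 had 703, 411 and 1330 normalized counts in the controls against 8451, 1330 and 1389 after depletion, and the log2 fold change was 1.78 (limma adjusted p = 0.218), with depleted replicate 1 far above the other samples.

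GAB2, a docking protein that links receptors to PI3K, was the 1 of 13 adapter genes called by limma and by edgeR. DESeq2 also called the adapter NCK1 lower (limma log2 fold change -1.04, limma adjusted p = 0.0731). GAB2 had 35.1, 56.8 and 85.6 normalized counts in the controls against 468, 395 and 434 after depletion, and the log2 fold change of 2.93 (by limma, adjusted p = 0.00509) held when any 1 of the 6 samples was left out. Its relative GAB1 had a log2 fold change of -0.08 (by limma, adjusted p = 0.958). In the RAS, RAF, MEK and ERK list, KSR1, a scaffold for RAF, MEK and ERK, was the 1 of 11 genes called, by limma, edgeR and DESeq2 alike. It went from 203, 462 and 465 normalized counts to 54.9, 94.4 and 62.6 (log2 fold change -2.34, limma adjusted p = 0.0196), and it kept its call when control replicate 1 or control replicate 3 was left out but not when any of the other samples was. The other 10 genes had log2 fold changes between -0.84 (BRAF) and 0.23 (NRAS).

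Of the 17 feedback and target genes of ERK, limma called 2, IER3 and CCND1, both higher, beside 4.36% of all genes. edgeR called IER3 alone, and DESeq2 called IER3, CCND1, ETV5 and SPRY1 higher and MYC lower. IER3, an early response gene, went from 1031, 2123 and 1282 normalized counts to 4084, 3208 and 5026 (log2 fold change 1.52, limma adjusted p = 0.0385). CCND1, which encodes cyclin D1, went from 1355, 4257 and 735 to 11808, 8902 and 10259 (log2 fold change 2.66, limma adjusted p = 0.0313), or 3.36 without control replicate 2 (limma adjusted p = 0.00546). Both kept their call only without control replicate 2 or control replicate 3 when samples were left out in turn. The median log2 fold change of the list was 1.44, with 15 of 17 genes above 0, against -0.03 over all genes tested. At an unadjusted limma p under 0.05, 9 of the 17 were higher and 1 lower. The conditions did not overlap in 7 of them, 6 higher and 1 lower (MYC), beside 25.6% of all genes tested. Without the trend both calls were lost (limma adjusted p = 0.0775 for IER3 and 0.0621 for CCND1). Both were also lost with the length and GC correction plus the replicate block (limma adjusted p = 0.0637 for IER3 and 0.0588 for CCND1). That of IER3 was lost with the replicate block alone as well (0.0775). MYC, a transcription factor of growth, had 1557, 4964 and 1473 normalized counts in the controls against 833, 492 and 425 after depletion, with no overlap (log2 fold change -2.01, limma adjusted p = 0.053). DUSP6, a phosphatase of ERK, had 115, 936 and 157 normalized counts in the controls against 1266, 902 and 660 after depletion and did not pass (limma adjusted p = 0.201).

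**Figure D5:**
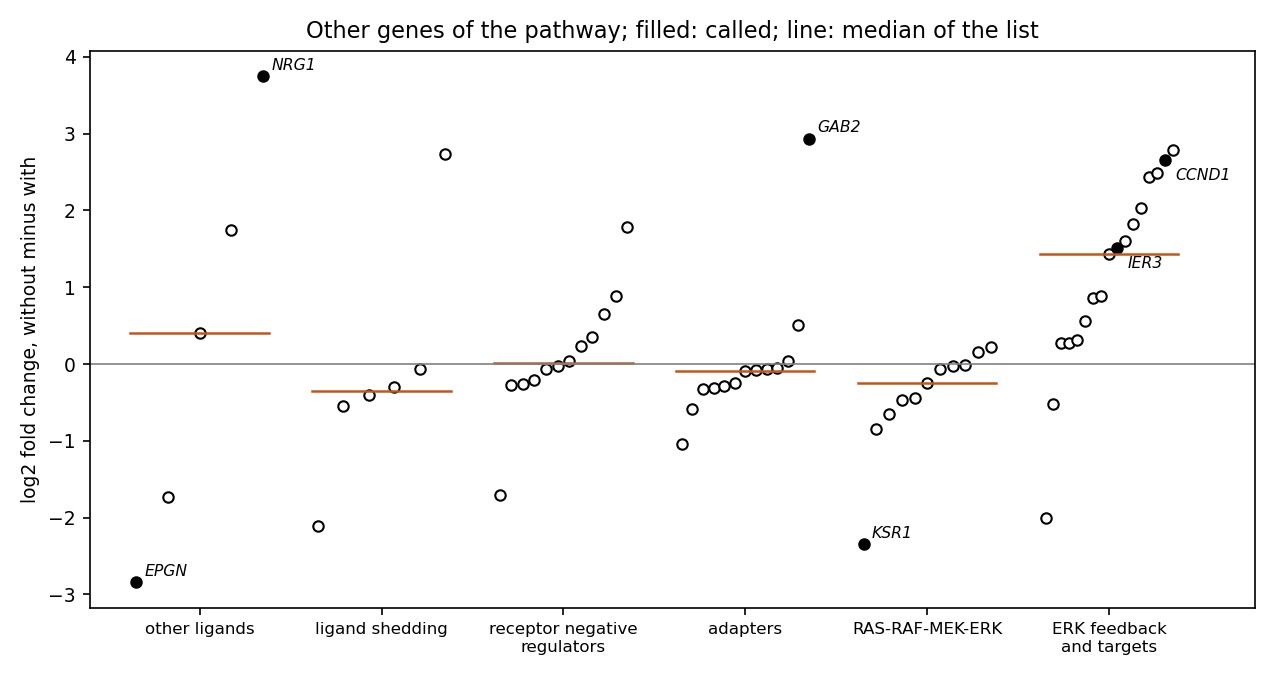
Log2 fold change (without minus with growth factors) of the tested genes of 6 pathway lists, each point a gene and each line the median of its list; filled points are called and named. The called genes are EPGN and KSR1 below 0 and NRG1, GAB2, CCND1 and IER3 above 0, and SPRY2 stands in both the list of negative regulators and that of ERK targets.

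The genes most like EGFR and ERBB3 were sought by the root mean square distance of log2 values, centred on their mean over the 6 samples, among the 11687 genes averaging 100 normalized counts or more. For EGFR the nearest were PER2, GPHN, EPB41L4A, PITX1-AS1 and COL4A5, at distances between 0.28 and 0.37. PER2, a circadian repressor, had 1349, 929 and 1441 normalized counts in the controls against 520, 318 and 143 after depletion. Like EGFR, PER2 and the other 4 were highest in control replicate 3 and lowest in depleted replicate 3, which largely follows from how they were picked. For ERBB3 the nearest were HOMER2, ST6GALNAC2, CAMSAP3, C6orf132 and GASK1B-AS1, at distances between 0.22 and 0.37. All of them, like ERBB3, were highest in control replicate 3 and lowest in depleted replicate 1, again largely because of how they were picked. HOMER2, a scaffold protein, had 1558, 1212 and 1984 normalized counts in the controls against 174, 757 and 787 after depletion.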

How the data were processed

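RNA-Seq of MCF10A cells was analysed in 6 samples, 3 with and 3 without growth factors. Groups and replicate numbers came from the labels. The authors depleted ribosomal RNA, made stranded libraries, and sequenced single-end reads of 100 bases. They then trimmed with cutadapt 1.6, mapped to hg38 with TopHat2, counted with HTSeq 0.6 on Gencode v22, and divided by DESeq2 1.8.1 size factors (tools and versions from the submitters' processing notes and the methods of the study). The deposited values are thus a normalized signal per gene. All values (100%) were whole multiples of 1 read within 0.01, so reads were recovered.

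Gencode v44 (hg38) gave names for 18913 of the 19198 identifiers, with exon lengths and coordinates, and RefSeq (GRCh38.p14) gave the promoters. limma 3.58.1 (R 4.3.3, eBayes with trend) was run on log2(value + 1) for 16988 genes with a mean of at least 10. edgeR 4.0.16 (971 genes called) and DESeq2 1.42.0 were run on the recovered reads as alternatives. Other alternatives were the pseudocount, the minimum mean, the scaling, the trend, the replicate block, a length and GC correction, and leaving out each sample. The procedure was tested on simulated data.

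Members and lists were chosen with earlier results of these data known, and motifs and chromosomal neighbours after their values were seen. Named genes are the members, the other EGF family ligands and ERBB4, the called genes of each list (at most 4 in each direction) and the 5 genes nearest in pattern to EGFR and to ERBB3. Any other gene was chosen after its values were seen.

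Same-numbered samples of the conditions had correlations of their deviations of -0.07, -0.28 and -0.32, so the numbers were not taken as pairs.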

Additional observations from a re-analysis of the deposited data

How the results depend on the processing

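AREG was called under all 12 alternatives that kept the 6 samples, EREG and EPGN under 11 each and EGFR under some. HBEGF, TGFA, ERBB2, ERBB3 and ERRFI1 were called under 0 of them. The sign of these genes was kept in all 18 settings, ERRFI1 excepted. EREG was lost with the length and GC correction plus the replicate block (adjusted p = 0.0548). EPGN was lost without the trend (limma adjusted p = 0.0836) and only just passed with a minimum mean of 50 (0.05 after rounding). EGFR was lost with rescaling to the same total (0.0552), quantile normalization (0.0717), no trend (0.0739), the replicate block (0.0505) and edgeR (0.0593). With the correction plus block EGFR only just passed (limma adjusted p = 0.05 after rounding). The replicate block left 2 members and 967 genes called. Leaving out samples in turn gave 1 to 4 members, with 1 without depleted replicate 2. Over all genes the count of 1076 ranged from 453 to 2474: 634 and 675 without control replicates 1 and 2, 2474 without control replicate 3, and 453 and 467 without depleted replicates 2 and 3. DESeq2 gave 2112 genes and the correction plus block 689. The count of pathway genes (6) was 13 by DESeq2, 3 without the trend, 3 with the correction plus block, and 1 to 12 with samples left out: 2 and 12 without control replicates 1 and 3, and 1 when any single depleted sample was left out. edgeR left 2 members called and DESeq2 gave 4. ERRFI1 ranged from -0.15 to 0.56 with samples left out and was at -0.0209 by DESeq2. With the longest transcript as the length, levels per kilobase with growth factors were 1239 for EGFR, 657 for ERBB2 and 515 for ERBB3, and without growth factors 290 for EGFR, 464 for ERBB2, 176 for ERBB3, 61.3 for AREG and 1369 for ERRFI1. The causes were not tested. Depth limits EGF, NRG2 and ERBB4, which have control samples with 3 reads or fewer.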
